A study of Mus musculus with 3 samples.

Results

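Transcripts of 6 genes for secreted peptide or protein hormones, Penk, Agt, Nmb, Fndc5, Adm and Alkal2, were followed by cell lineage in single cells from mouse inguinal adipose tissue, the subcutaneous fat pad of the groin. The genes were taken by symbol from the 31053 features that each of the 3 count matrices holds, and all 6 were found. The members were selected on their UMI counts in stromal cells, which are high in the Pdgfra-Cre library. Their levels and ratios between the stromal cells of the libraries are therefore given as a description, with no test. The libraries were, by genotype, Pdgfra-Cre; TERT fl/fl (here Pdgfra-Cre), Pdgfrb-Cre; TERT fl/fl (here Pdgfrb-Cre) and TERT +/+ (here wild type), with 1 library of each. Tert encodes the catalytic subunit of telomerase. Cre recombinase removes floxed sequence where its driver is active, and the drivers here are promoters of platelet-derived growth factor receptors: Pdgfra is used by stromal progenitors of fat, Pdgfrb by mural cells and part of the stroma. No label gives the Cre transgene or floxed alleles for the wild type. Genotype, library and Cre transgene can thus not be told apart, and the age, sex and number of animals per library are not stated. The sample title of the wild type carries the abbreviation PBS, which is not explained.

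Peptide hormones are cut from longer precursors in the secretory pathway by prohormone convertases and carboxypeptidases, or outside the cell by circulating proteases. They then act on receptors of the same or another cell. Stromal progenitors, the fibroblast-like cells of fat that give rise to adipocytes, secrete many such factors. Penk encodes proenkephalin, the source of the opioid enkephalins. Agt encodes angiotensinogen, which renin and angiotensin-converting enzyme cut to angiotensin II and which fat makes beside the liver. Nmb encodes neuromedin B, a bombesin-like peptide, and Adm encodes adrenomedullin, a vasodilator peptide whose gene is induced by hypoxia. Fndc5 is a membrane protein whose outer part is released as irisin, and Alkal2 is a secreted protein that activates the receptor tyrosine kinase ALK. These last members are hormone or ligand precursors in a wider sense than the other 4. Wt1 and Tcf21, whose detection was used to divide the stromal cells, are transcription factors of mesothelium and of visceral and epicardial stroma.

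The promoters of the members were read from the RefSeq table of GRCm38.p6, which held 5 of the 6 genes; Penk is named only. Within the 250 bases before the start, 6 short motifs were searched on both strands. Agt was the only one of the 5 with TATAAA, at position -30, a motif that 12.4% of all 32851 promoters of the table held in the same window. The hypoxia-response core GCGTG (28.2% of promoters) was in Adm at -90 and -54, in Fndc5 and in Nmb. The related core ACGTG (16.6%) was in Alkal2 and Fndc5. No member had the AP-1 motif TGANTCA (6.75%), the cyclic AMP element TGACGTCA (1.55%) or the palindromic glucocorticoid response element (0.00913%). The cores ACGTG and GCGTG do not overlap each other in these members. A match is a run of letters, not a site shown to be bound. The promoters of Agt, with the TATA motif, of Adm, with the repeated hypoxia core, and of Fndc5, with the largest ratio of stromal levels before any CPM is added, are given here; capitals mark the matches, 5′ to 3′ on the strand of the gene, where both Adm matches read as CACGC.
Agt (chr8:124569707-124569956, minus strand): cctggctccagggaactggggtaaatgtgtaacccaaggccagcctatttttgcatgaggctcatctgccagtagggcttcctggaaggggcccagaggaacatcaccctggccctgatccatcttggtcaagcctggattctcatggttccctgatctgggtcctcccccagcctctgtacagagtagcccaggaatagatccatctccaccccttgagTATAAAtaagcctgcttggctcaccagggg
Adm (chr7:110627407-110627656, plus strand): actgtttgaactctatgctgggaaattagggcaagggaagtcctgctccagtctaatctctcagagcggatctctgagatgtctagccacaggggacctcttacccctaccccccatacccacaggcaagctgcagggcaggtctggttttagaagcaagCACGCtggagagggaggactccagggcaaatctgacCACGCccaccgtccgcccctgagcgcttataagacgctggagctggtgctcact
Fndc5 (chr4:129136749-129136998, plus strand): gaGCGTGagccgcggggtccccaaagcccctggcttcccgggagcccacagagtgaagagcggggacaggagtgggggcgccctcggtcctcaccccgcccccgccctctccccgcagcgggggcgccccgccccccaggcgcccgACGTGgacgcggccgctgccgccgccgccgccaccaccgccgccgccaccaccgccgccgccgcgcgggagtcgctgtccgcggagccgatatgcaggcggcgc
The GC content of these windows was 55.6% for Agt, 56.8% for Adm and 80.8% for Fndc5, against a median of 52.4% over all promoters.

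After filtering, 1409 Pdgfra-Cre, 3903 Pdgfrb-Cre and 2668 wild-type cells were kept, 7980 in all. Stromal cells, called so from RNA markers, numbered 621, 571 and 219 in that order, or 44.1%, 14.6% and 8.21% of kept cells, with 5707498, 6109791 and 768153 UMIs (unique molecular identifiers, one per captured transcript). The median stromal cell held 9677, 10521 and 1538 UMIs, so wild-type stroma was the shallowest. All 12 stromal markers stood at 10 CPM or more in the stroma of every library, CPM being UMIs of a gene scaled so that the UMIs of the summed cells add to 1000000. The Pdgfra-Cre library also held 123 mesothelial cells, a cell type that lines body cavities and visceral fat, while the Pdgfrb-Cre and wild-type libraries held 0, which allows shares of up to 0.0769% and 0.112%. All 3 libraries are labelled inguinal; whether tissue of another depot entered the Pdgfra-Cre library is not settled by the files, and a difference in tissue cannot be told apart from genotype in any ratio that uses it. In addition 428 Pdgfra-Cre stromal cells (68.9%) had a UMI of Wt1 or Tcf21, against 3 (0.525%) in Pdgfrb-Cre and 2 (0.913%) in wild type. Haemoglobin RNA moved with that library as well: Hbb-bs stood at 1422 CPM in Pdgfra-Cre stroma, 1.15 in Pdgfrb-Cre and 7.81 in wild type, and its part in the results was not tested. The 10 mesothelial markers summed to 153 CPM in Pdgfra-Cre stroma, 25.04 in Pdgfrb-Cre and 13.02 in wild type, with Wt1, itself on that list, giving 147 CPM of the first sum, and 6 of them were at 0 in each of the last 2 libraries. The 7 erythroid markers summed to 2611, 1.80 and 15.6 CPM. Different clusters held most of the stroma of each library. In cluster 6 were 588 Pdgfra-Cre, 12 Pdgfrb-Cre and 0 wild-type cells. Cluster 20 had 7, 339 and 0 in the same order, cluster 18 had 4, 199 and 33, and cluster 9 had 22, 21 and 186. A cluster that is mostly 1 library may be that library and not a cell type. Pairs of libraries shared 1 or 2 kept barcodes.

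All 6 members had their highest stromal level in the Pdgfra-Cre library. Levels are UMIs of the gene over all UMIs of the summed stromal cells, in CPM, with 95% Poisson intervals that cover counting error only and not the spread between animals or cells. A member was counted as higher or lower when its log2 ratio, with 10 CPM added to both sides, passed 2-fold. By that count 6 of 6 members were higher in Pdgfra-Cre than in wild type, beside 7.24% of the 8994 features with at least 10 CPM in either library, and 6 of 6 were higher in Pdgfra-Cre than in Pdgfrb-Cre, beside 5.31% of 8600. Since the members were chosen for this contrast, nothing is read from these shares. Between Pdgfrb-Cre and wild type, 1 member (Nmb) was higher, beside 5.8% of 8669 features, and 1 (Agt) was lower, beside 3.62%.

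Penk (ENSMUSG00000045573, chr4:4133531-4138819 of GRCm38, minus strand) stood at 1177 CPM in Pdgfra-Cre stroma (1149 to 1205), 86.4 in Pdgfrb-Cre (79.2 to 94.1) and 137 in wild type (112 to 165). The Pdgfra-Cre interval lay above both others, and the wild type lay above Pdgfrb-Cre. The ratio of Pdgfra-Cre was 8.61 to wild type (7.10 to 10.54) and 13.6 to Pdgfrb-Cre (12.5 to 14.9). The gene overlaps A830012C17Rik on the opposite strand. Penk was the member seen in most Pdgfra-Cre cells, with 8 UMIs in the median stromal cell there and 0 in the median cell of the other libraries.

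Agt (ENSMUSG00000031980, chr8:124556534-124569706, minus strand) stood at 433 CPM in Pdgfra-Cre stroma (416 to 451), 4.91 in Pdgfrb-Cre (3.31 to 7.01) and 45.6 in wild type (31.7 to 63.4). The intervals of the 3 libraries did not overlap, and Pdgfrb-Cre was the lowest. Pdgfra-Cre was 9.51-fold above wild type (6.82 to 13.7), and Pdgfrb-Cre was 9.28-fold below it (5.53 to 15.6), on 30 Pdgfrb-Cre UMIs and 35 wild-type UMIs.

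Nmb (ENSMUSG00000025723, chr7:80902227-80905076, minus strand, overlapping Sec11a on the same strand) stood at 309 CPM in Pdgfra-Cre stroma (294 to 323), 42.6 in Pdgfrb-Cre (37.5 to 48.1) and 14.3 in wild type (7.15 to 25.6). This was the only member whose Pdgfrb-Cre level was above the wild type. The ratio to wild type was 21.5 for Pdgfra-Cre (12.0 to 43.2) and 2.97 for Pdgfrb-Cre (1.63 to 6.03). The wild-type value rests on 11 UMIs and lay near the 10.0 CPM of the pooled wild-type B, T and NK cells. With every stromal cell thinned to 1000 UMIs, the log2 ratio of Nmb between Pdgfrb-Cre and wild type was 0.85, against 1.11 unthinned, which is under the 2-fold line, so that 0 members were counted as higher.

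Fndc5 (ENSMUSG00000001334, chr4:129136999-129144593, plus strand) stood at 187 CPM in Pdgfra-Cre stroma (176 to 199), 0.818 in Pdgfrb-Cre (0.266 to 1.91) and 6.51 in wild type (2.11 to 15.2). Outside Pdgfra-Cre it was close to absent, with 5 UMIs in each of the other libraries. The ratio of Pdgfra-Cre to wild type was 28.8, with a wide interval (12.3 to 88.8), and its ratio to Pdgfrb-Cre was 229 (97.8 to 706).

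Adm (ENSMUSG00000030790, chr7:110627661-110629820, plus strand, with Gm28863 on the opposite strand) stood at 269 CPM in Pdgfra-Cre stroma (255 to 282), 32.4 in Pdgfrb-Cre (28.1 to 37.2) and 48.2 in wild type (33.9 to 66.4). The last 2 intervals overlapped. The ratio of Pdgfra-Cre to wild type, 5.58 (4.03 to 7.95), was the smallest of the 6. Alkal2 (ENSMUSG00000054204, chr12:30884322-30893854, plus strand, with Acp1 on the opposite strand) stood at 181 CPM in Pdgfra-Cre stroma (169.95 to 192), 6.06 in Pdgfrb-Cre (4.26 to 8.35) and 18.2 in wild type (9.96 to 30.6). Pdgfra-Cre again lay above both, at 9.92-fold the wild type (5.89 to 18.2), and Pdgfrb-Cre was the lowest. Pdgfrb-Cre and wild type differed in log2 ratio by -0.81 for Alkal2, -0.61 for Penk, -0.61 for Fndc5 and -0.46 for Adm, none past 2-fold. With 1 CPM added instead of 10, 3 members (Agt, Alkal2 and Fndc5) passed 2-fold lower in the Pdgfrb-Cre stroma, though Fndc5 was under 10 CPM in both libraries and so is not a measured feature there.

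**Figure D1:**
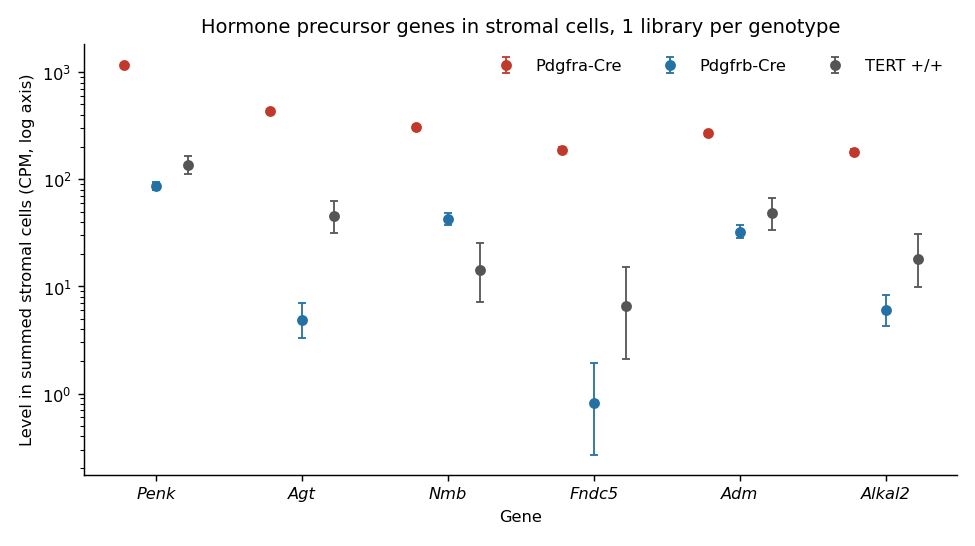
Level of each gene in the summed stromal cells of the Pdgfra-Cre, Pdgfrb-Cre and wild-type (TERT +/+) libraries, in CPM on a log axis; points are the values of 1 library each and bars are 95% Poisson intervals, which are smaller than the point where not visible. All 6 Pdgfra-Cre points, from 181 to 1177 CPM, lie above those of the other libraries.

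Depth differs between these libraries, so the share of stromal cells with a UMI was also taken after every cell was thinned to 1000 UMIs, which kept 608 Pdgfra-Cre, 568 Pdgfrb-Cre and 187 wild-type cells and left out 13, 3 and 32. At that depth Penk was seen in 55.6% of Pdgfra-Cre cells (51.5 to 59.6), 9.15% of Pdgfrb-Cre cells (6.91 to 11.8) and 8.56% of wild-type cells (4.97 to 13.5). Unthinned, its shares were 89.7%, 30.5% and 17.8%. Agt was seen in 30.3% of thinned Pdgfra-Cre cells, 0 of 568 Pdgfrb-Cre cells (3 counts would be 0.528%) and 5.35% of wild-type cells. For every member the Pdgfra-Cre share lay above the intervals of both others, at 22.9% for Nmb, 12.2% for Fndc5, 19.6% for Adm and 16.1% for Alkal2. The thinned shares of the other libraries are near the level of free RNA or of single UMIs for several genes and are not ordered here. Cells of the named B, T and NK clusters served as a background; the unnamed lymphoid clusters, among them 2 with Penk UMIs, were not part of it. At 1000 UMIs they had Penk in 0% of cells in each library, and Nmb in 4.27%, 0.725% and 1.03% of Pdgfra-Cre, Pdgfrb-Cre and wild-type cells. The wild-type stromal share of Nmb, 0.535%, is no higher than that background, while the Pdgfrb-Cre stromal share was 4.40%. Median depths of these lymphoid cells before thinning were 4538, 4222 and 4170 UMIs.

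**Figure D2:**
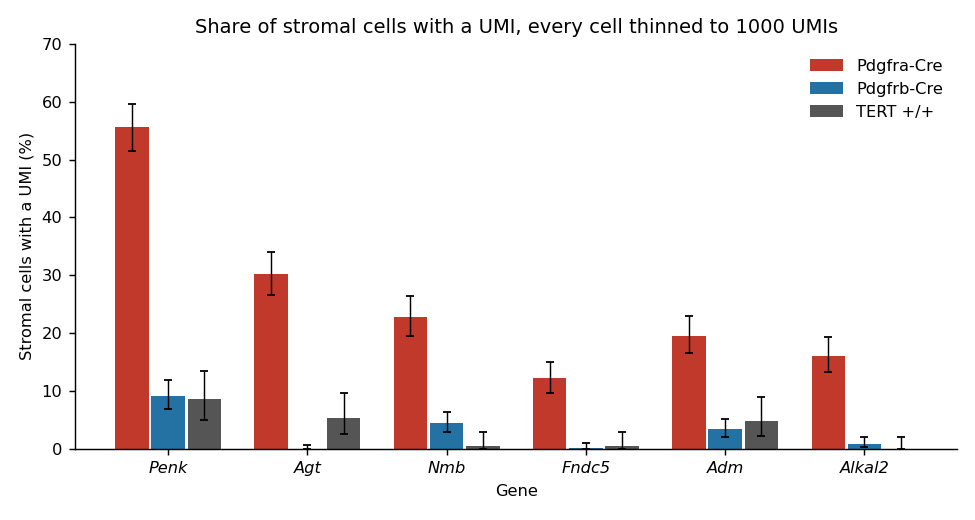
Percent of stromal cells with at least 1 UMI of each gene after thinning every cell to 1000 UMIs, by library; bars start at 0 and lines are exact 95% binomial intervals. The Pdgfra-Cre bars run from 12.2% for Fndc5 to 55.6% for Penk, and no bar of the other libraries reaches 10%.

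Cells with UMIs of more than 1 member were also counted. Such counts rise with the share of each gene alone and were not set against what those shares would give. Joint expression is therefore not read from them. At 1000 UMIs, 50.7% of Pdgfra-Cre stromal cells had UMIs of at least 2 of the 6 genes, against 0.880% of Pdgfrb-Cre and 1.60% of wild-type cells. At 3000 UMIs, which kept 523 Pdgfra-Cre cells, 14 of them (2.68%) had all 6 members. Expression was uneven among the Pdgfra-Cre cells. The tenth of cells with most UMIs of a gene gave 35.4% of its UMIs for Penk and 36.1% for Agt, but 55.1% for Fndc5, whose median cell had 0 UMIs and whose highest had 27. Deeper cells carry more UMIs of every gene, so these shares include the spread of depth between cells.

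Dividing the Pdgfra-Cre stroma by detection of Wt1 or Tcf21 set 428 cells with a UMI of either gene against 193 with neither. All 6 members differed by less than 2-fold across this division. Penk stood at 1213 CPM in the detected cells and 1033 in the others (ratio 1.17, 1.10 to 1.25). Agt stood at 444 and 391 CPM (1.13, 1.02 to 1.26), and Nmb at 319 and 266 (1.20, 1.06 to 1.36). Those ratios were close to 1. The widest gaps were those of Fndc5, at 204 CPM in detected cells and 121 in the others (1.68, 1.41 to 2.03), and of Alkal2, at 192 and 138 (1.39, 1.17 to 1.66). Most features hardly differed here, and these ratios of Fndc5 and Alkal2 were above those of 99.5% and 96.7% of the features measured. Adm went the other way, at 261 CPM in detected cells and 300.5 in the others (0.867, 0.769 to 0.980). By the 2-fold count 0 of 6 members were higher, beside 0.128% of 8585 features, and 0 were lower, beside 0.221%. The cells with neither transcript were shallower, with a median of 5785 UMIs against 10700 in the detected cells, and 180 of the 193 lay in cluster 6. The 7 erythroid markers summed to 1761 CPM in the detected cells and 5962 in the others, and their part in these values was not tested. At resolution 2, a cluster of 92 Pdgfra-Cre and 11 Pdgfrb-Cre barcodes, led by Hba-a2 and Hbb-bs with a mean of 2201 UMIs, was named erythroid. The Pdgfra-Cre stroma then held 529 cells in place of 621, and 400 with Wt1 or Tcf21 in place of 428. Some cells with neither transcript may thus be haemoglobin-led barcodes. Taken alone, the 193 Pdgfra-Cre cells with neither transcript had ratios to the 217 such wild-type stromal cells of 7.34 for Penk, 8.35 for Agt, 18.04 for Nmb, 18.10 for Fndc5, 6.41 for Adm and 7.34 for Alkal2. All 6 were past 2-fold there, beside 7.51% of 9030 features, with 0 lower, beside 5.7%. These cells are part of the stroma on which the members were chosen, so nothing is read from these shares. The Pdgfrb-Cre and wild-type stroma had 3 and 2 cells with Wt1 or Tcf21, too few for the same division.

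Graded by the number of Wt1 and Tcf21 UMIs in a cell, 5 of 6 members were higher in cells with 5 or more than in cells with 0, and Adm was lower; the intervals of these end steps overlapped for Nmb alone. Median depth was 11848 UMIs in the cells with 5 or more and 5785 in those with 0. From 0 to 1, 2, 3 to 4 and 5 or more UMIs, Penk stood at 1033, 1304, 1087, 1146 and 1277 CPM. Adm stood at 300.5, 340, 211, 249 and 239 CPM over the same steps, lower in the last 3 than in the first 2. Agt, at 391, 405, 434, 415 and 505 CPM, was highest in the last step. Fndc5 stood at 121, 195, 182, 199 and 229 CPM, and Alkal2 at 138, 188, 182, 181 and 209 CPM, both lowest at 0 UMIs. By which of the transcription factors was seen, Penk was highest in the 180 cells with Wt1 alone, at 1452 CPM (1396 to 1510), against 1128 (1055 to 1203) in the 84 cells with Tcf21 alone and 1041 (997 to 1087) in the 164 with both. Nmb was instead lowest in the cells with Wt1 alone, at 255 CPM there (232 to 280), against 399.9 with Tcf21 alone (357 to 446) and 342 with both (317 to 369). The intervals leave out the spread between cells.

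Cluster membership divided the Pdgfra-Cre stroma much more than the transcription factors did. The 33 Pdgfra-Cre stromal cells outside cluster 6 had a median of 10327 UMIs, 20 of them had Wt1 or Tcf21, and together they stood at 90.9 CPM of Wt1 and 141 of Tcf21. In those cells Penk was at 149.6 CPM (111 to 197), Agt at 11.7, Nmb at 11.7, Fndc5 at 2.93, Adm at 135 and Alkal2 at 44.0. In the 588 cells of cluster 6 the same genes stood at 1242, 460, 327, 199, 277 and 189.5 CPM. Penk, Agt, Nmb, Fndc5 and Alkal2 were thus past 2-fold higher in cluster 6, by ratios of 8.30, 39.2, 27.9, 67.8 and 4.31, and Adm was just short of it at 2.05 before the added CPM, with 5.5% of 8849 features past 2-fold in that direction and 4.96% in the other, where 0 members were. Clusters were formed from other variable genes, with the 6 members, Wt1 and Tcf21 left out, but genes that move with them were in, and Penk and Agt are among the 10 genes that lead cluster 6, so this contrast is a description. Against wild-type stroma, the 33 cells had ratios of 1.09 for Penk (0.767 to 1.54), 0.258 for Agt (0.0665 to 0.720), 0.819 for Nmb (0.190 to 2.77), 0.451 for Fndc5 (0.00953 to 4.03), 2.80 for Adm (1.78 to 4.44) and 2.41 for Alkal2 (1.09 to 5.40). Without cluster 6, then, 1 member (Adm) was higher than in wild type, beside 6.84% of 8983 features, and 1 (Agt) was lower, beside 6.35%. Against the 559 Pdgfrb-Cre stromal cells outside cluster 6, Adm and Alkal2 were higher in the 33 cells by ratios of 4.23 and 7.20, beside 3.94% of 8555 features, and Nmb was lower at 0.274, beside 4.17%. Wt1 and Tcf21 stayed 69.8-fold (11.6 to 2847) and 36.1-fold (11.6 to 181) above wild type in the same 33 cells. The wild-type values rest on 1 UMI of Wt1 and 3 UMIs of Tcf21. The 12 Pdgfrb-Cre cells inside cluster 6 were few and shallow, with Penk at 35.3 CPM (4.28 to 128) from 2 UMIs and Agt at 0 UMIs, which allows 53.0 CPM.

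**Figure D3:**
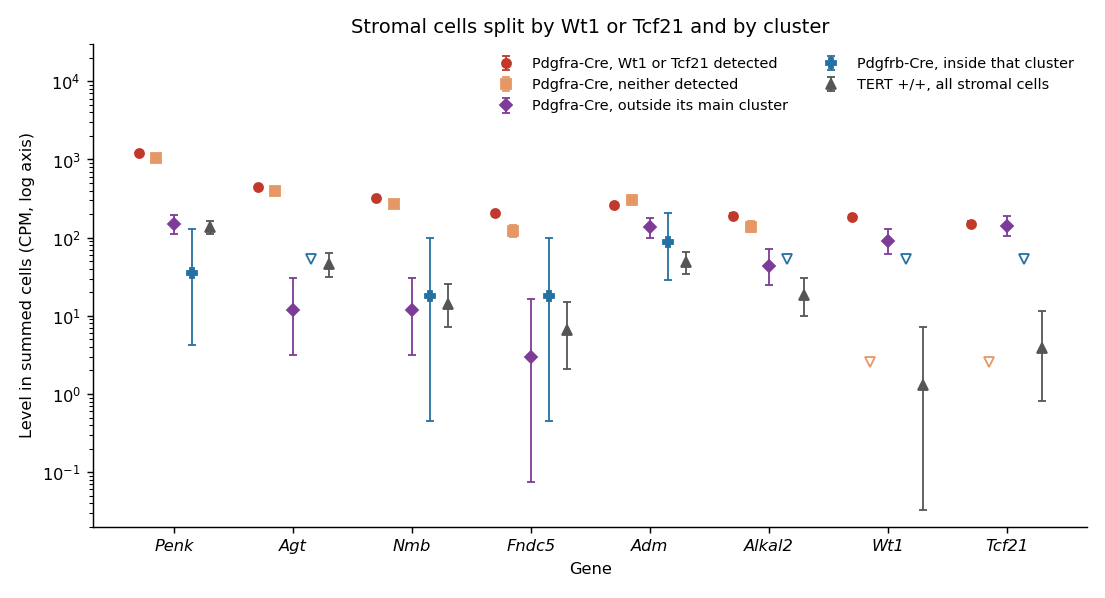
Levels in CPM on a log axis, with 95% Poisson intervals, of the 6 genes and of Wt1 and Tcf21 in Pdgfra-Cre stromal cells with and without a UMI of Wt1 or Tcf21, Pdgfra-Cre stromal cells outside cluster 6, the 12 Pdgfrb-Cre cells inside it and all wild-type stromal cells; open triangles are the limit for a count of 0. The circles and squares lie close together for the 6 genes, and the diamonds lie below both for each of the 6, while for Tcf21 the diamond, at 141 CPM, lies near the detected cells.

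In the other libraries the members were also concentrated in part of the stroma. Cluster 18, led by Mmp3, Cxcl14 and Cxcl13, held 33 of the wild-type stromal cells, and in them Penk stood at 438 CPM (343 to 551), Agt at 182 (123 to 260) and Alkal2 at 73.0 (37.7 to 127). In the 186 wild-type cells of cluster 9, led by Col1a1, Postn and Pi16, Penk stood at 54.7 CPM (37.6 to 76.8), Agt at 8.28 (2.69 to 19.3) and Alkal2 at 3.31 (0.401 to 12.0). These 3 members were apart between the clusters. Adm, at 73.0 CPM in cluster 18 (37.7 to 127) and 41.4 in cluster 9 (26.8 to 61.1), was not. In Pdgfrb-Cre, cluster 18 (199 cells) was apart from cluster 20 (339 cells, led by Has1, Dmkn and Igfbp5) for Nmb, at 122 CPM (106 to 139) against 9.98 (7.16 to 13.5), for Adm, at 65.3 (54.0 to 78.4) against 18.01 (14.1 to 22.6), and for Agt, at 16.3 (10.9 to 23.5) against 0.243 (0.00616 to 1.36). Penk differed less there, at 112 CPM (97.0 to 129) in cluster 18 and 79.1 (70.7 to 88.2) in cluster 20. Within cluster 18, where both libraries had cells, Pdgfrb-Cre was below wild type for Penk and Agt and above it for Nmb, whose wild-type value was 24.3 CPM (6.63 to 62.3) on 4 UMIs.

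**Figure D4:**
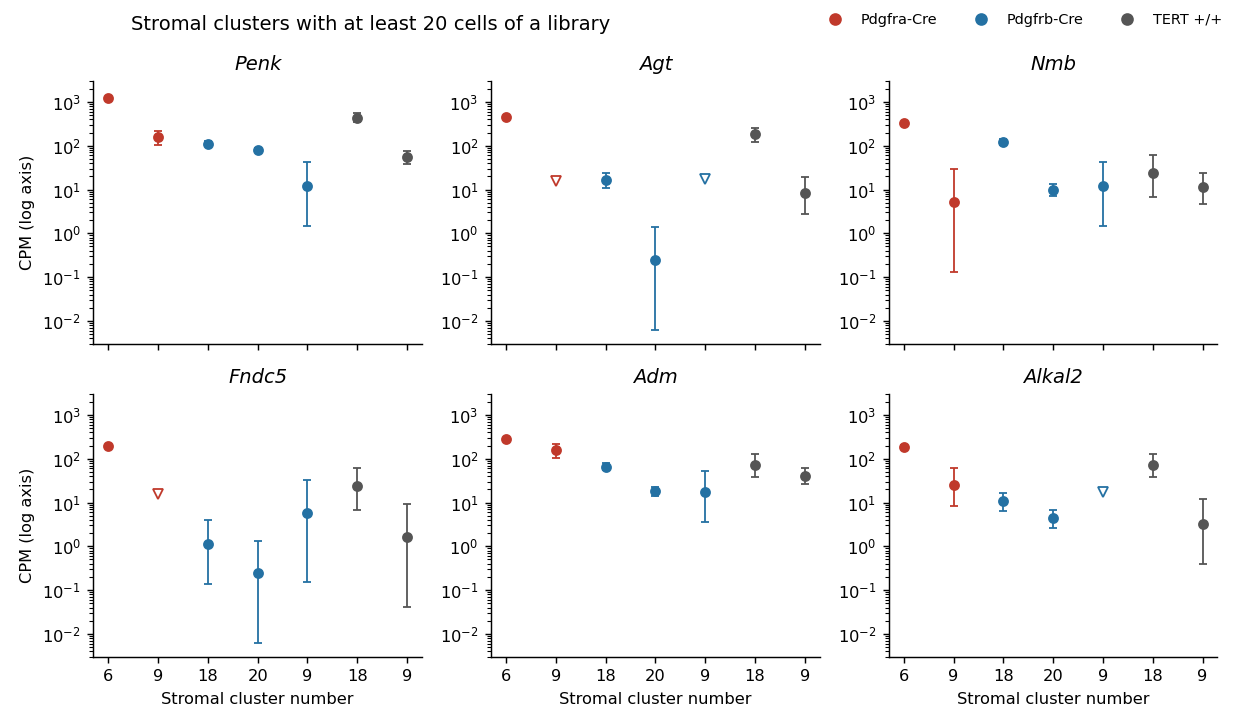
CPM on a log axis, with 95% Poisson intervals, of each gene in the stromal clusters that held at least 20 cells of a library, with Pdgfra-Cre clusters at the left, Pdgfrb-Cre in the middle and wild type at the right; open triangles are the limit for a count of 0. Cluster 6 of Pdgfra-Cre is highest in all panels, and cluster 18 lies above cluster 9 in wild type for Penk, Agt and Alkal2.

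Pi16 and Dpp4 mark the interstitial progenitors of fat, which lie upstream of the committed preadipocytes. A division by these genes was chosen after the clusters were seen. Stromal cells with a UMI of either had less Agt than those with neither, at 186 against 530.4 CPM in Pdgfra-Cre, 1.44 against 18.7 in Pdgfrb-Cre and 11.5 against 118 in wild type. Penk followed in Pdgfra-Cre, at 773 against 1335 CPM, and in wild type, at 92.0 against 231, but stood at 84.5 against 94.1 CPM in Pdgfrb-Cre. The share of stromal cells with Pi16 or Dpp4 differed between the libraries, at 149 of 621, 422 of 571 and 141 of 219 cells. Pi16 itself stood at 147 CPM in Pdgfra-Cre stroma, 2082 in Pdgfrb-Cre and 2234 in wild type. Median stromal depth was 9677 UMIs in Pdgfra-Cre and 1538 in wild type, so detection need not mark the same cells in each library. Penk stood at 773 CPM (731 to 817) in Pdgfra-Cre cells with either gene and 231 (175 to 300) in wild-type cells with neither. For Agt the intervals of these groups overlapped. The part of such cells in the levels was not tested.

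Across lineages, Pdgfra-Cre stroma gave nearly all UMIs of each member in that library, from 94.5% for Nmb to 99.6% for Penk. In wild type the stromal share of UMIs was 80.2% for Penk (72.3 to 86.6) and 14 of 14 for Alkal2, but 41.2% for Agt, 25.5% for Adm, 23.8% for Fndc5 and 9.09% for Nmb. In Pdgfrb-Cre it was 88.1% for Alkal2 (74.4 to 96.0), 82.5% for Penk (79.3 to 85.4) and 68.5% for Adm (62.8 to 73.8). For Agt it was 49.2% there, for Nmb 49.0% and for Fndc5 31.25%. Stroma was a small share of the cells in both of these libraries. By level, Agt was highest in mural cells, the contractile cells of vessel walls, in Pdgfrb-Cre (45.5 CPM, 30.2 to 65.7) and in wild type (69.6, 49.0 to 95.9), where stroma came next at 45.6 with an overlapping interval. Mural Agt was 37.9 CPM in Pdgfra-Cre (21.2 to 62.5), close to the other libraries, so the gap between libraries seen in stroma was not there. Adm was at 22.7 CPM in Pdgfra-Cre (13.9 to 35.0), 33.4 in Pdgfrb-Cre (26.2 to 42.1) and 31.4 in wild-type blood endothelial cells (24.6 to 39.6), again with overlapping intervals. In Pdgfrb-Cre and wild type these endothelial intervals also overlapped the stromal ones. Nmb was low in several immune lineages, highest in NK cells at 41.8 CPM (22.2 to 71.4) in Pdgfra-Cre, 15.5 (5.02 to 36.1) in Pdgfrb-Cre and 23.8 (8.73 to 51.8) in wild type. Mesothelial cells, found only in Pdgfra-Cre, had 429 CPM of Wt1 but 0 UMIs of Penk and Alkal2, which by the same limit of 3 counts allows 1.72 CPM, and 1.15 CPM of Agt. A small amount of Agt in Pdgfra-Cre dendritic cells (51.8 CPM, 13 UMIs from 3 of 29 cells) had no counterpart in the other libraries, where 0 UMIs were seen.

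**Figure D5:**
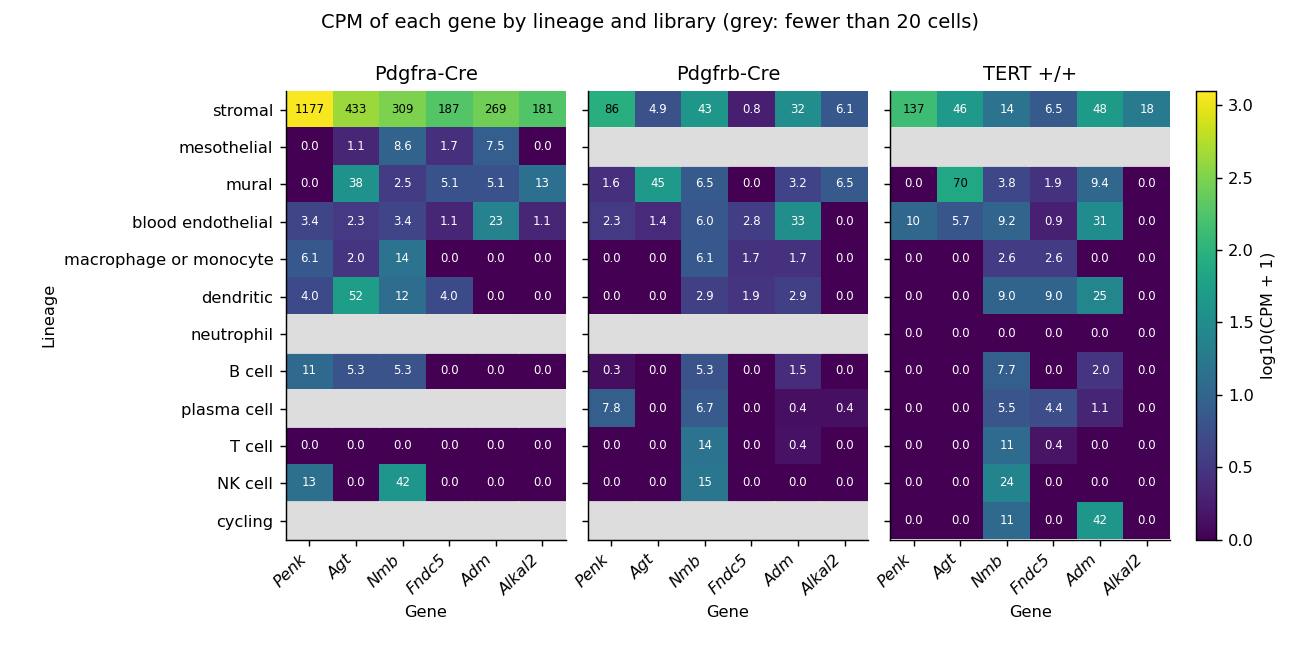
CPM of each gene (columns) in each lineage (rows) of the 3 libraries, with the colour on a log10(CPM + 1) scale; grey marks lineages with fewer than 20 cells. The stromal row is the brightest in Pdgfra-Cre for all 6 genes, while Agt in wild type and in Pdgfrb-Cre is brightest in mural cells.

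Against wild type, the other genes of these hormone systems mostly did not rise together with their precursors in Pdgfra-Cre stroma. Counts below are of measured list members, those with at least 10 CPM in either library, set beside the share of all features given above. Wild type had 5.48% of features past 2-fold above Pdgfra-Cre. Of 13 enkephalin processing and receptor genes, 6 were measured in Pdgfra-Cre against wild type, of which 0 were higher and 1 was lower (median log2 ratio -0.62, against 0.06 over all features). Carboxypeptidase E (Cpe), which trims enkephalin precursors, was at 72.9 CPM in Pdgfra-Cre, 23.1 in Pdgfrb-Cre and 37.8 in wild-type stroma, and cathepsin L (Ctsl) at 1597, 1488 and 1346 CPM. The lower gene was Anpep, an aminopeptidase that degrades enkephalins, at 20.3 CPM in Pdgfra-Cre and 76.8 in wild type. Of 15 genes of the renin-angiotensin system 8 were measured, with 1 higher (Enpep, which trims angiotensin II) and 1 lower (Agtr1a, its main receptor, at 19.97 CPM in Pdgfra-Cre and 58.6 in wild type; median -0.24). Ace, the converting enzyme, was at 231 CPM in Pdgfra-Cre, 186 in Pdgfrb-Cre and 372 in wild type.

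Of 10 genes of the adrenomedullin system 6 were measured, of which 2 were lower in Pdgfra-Cre than in wild type. These were the scavenger receptor Ackr3, at 102 CPM in Pdgfra-Cre and 238 in wild type, and the receptor chain Calcrl, at 13.3 and 87.2 CPM. In Pdgfrb-Cre, Ackr3 was instead higher than in wild type, at 698 CPM. The FNDC5 list of 8 genes holds relatives and integrin receptors of FNDC5, and also Adam10 and Hsp90aa1, which are neither. Of these 8 genes, 0 were higher and 0 lower in Pdgfra-Cre than in wild type (median -0.18). The bombesin-type and ALK lists, of 4 genes each, had 0 measured in stroma. In Pdgfra-Cre against Pdgfrb-Cre, 1 of 6 measured enkephalin genes (Cpe, log2 ratio 1.33) and 1 of 8 renin-angiotensin genes were higher, and 0 of either list were lower. There 2 of 6 adrenomedullin genes and 1 of 8 genes of the FNDC5 list were lower. Of all 8600 features, 5.31% were higher and 5.5% lower. Between Pdgfrb-Cre and wild type, 0 enkephalin and 0 renin-angiotensin genes were past 2-fold. In that comparison 1 gene each of the adrenomedullin list (Ackr3) and the FNDC5 list (Hsp90aa1) was higher, beside 5.8% of features. Among lineages, Ramp2, the partner chain of Calcrl, was highest in blood endothelium, at 625 CPM in Pdgfra-Cre, 409.6 in Pdgfrb-Cre and 634 in wild type, and Agtr1a was at 65.7 CPM in Pdgfra-Cre mural cells.

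Of 61 other hormone precursors on the list, 11 were measured in Pdgfra-Cre against wild type. Of these 4 were higher and 3 lower, beside 7.24% and 5.48% of features (median 0.89, against 0.06 over all features). Igf1, which encodes an insulin-like growth factor, was at 1417 CPM in Pdgfra-Cre, 143 in Pdgfrb-Cre and 305 in wild type. The activin antagonist Fst stood at 453, 362 and 200.5 CPM. Metrnl, a secreted meteorin-like protein, went the other way, at 94.8, 497 and 267 CPM, and chemerin (Rarres2) was at 979, 954 and 1575 CPM without passing 2-fold. The measured precursors thus went both ways, with a median above that of all features. The members, chosen as high in Pdgfra-Cre, were not on this list. In Pdgfrb-Cre against wild type 10 were measured, with 2 higher and 3 lower, beside 5.8% and 3.62% of features.

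Other gene lists also differed between the libraries, not all in the pattern of the members. Immediate early genes are a first wave of transcription that stimulation or cell dissociation can set off. In Pdgfra-Cre 19 of 23 were past 2-fold higher than in wild type, beside 7.24% of features. In Pdgfrb-Cre 16 of 23 were, beside 5.8% (medians 1.74 and 1.61). Egr1 stood at 4539 CPM in Pdgfra-Cre, 1742 in Pdgfrb-Cre and 525 in wild type, and Jun at 4576, 1811 and 1260 CPM. Glucocorticoid targets were higher for 6 of 12 in each comparison, beside the same shares (medians 1.22 and 1.01), with Mt1 at 4608, 4744 and 531 CPM. Hypoxia targets were higher for 1 of 12 in Pdgfra-Cre and 4 of 12 in Pdgfrb-Cre, again beside those shares (medians 0.35 and 0.16). In Pdgfrb-Cre 1 of them was lower, beside 3.62% of features. Against Pdgfrb-Cre, Pdgfra-Cre stroma was past 2-fold higher for 6 of 23 immediate early genes and lower for 3, beside 5.31% and 5.5% of 8600 features. Against wild type again, with 7.24% of features higher and 5.48% lower, Pdgfra-Cre was lower for 7 of 8 interstitial progenitor markers. It was higher for 7 of 9 measured committed preadipocyte markers (medians -2.71 and 1.30). In that comparison 3 of the 13 measured regulators of body position and visceral stroma were higher and 5 lower. Of the 8 markers of F3-type regulatory stroma 1 was higher and 3 lower there. Of the 7 genes of other lineages that mark free RNA, 6 were measured against wild type, with 2 higher (haemoglobins) and 3 lower. The part of these lists in the members' levels was not tested.

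The genes most like each member were taken over 29 sums of a lineage in a library, by the Pearson correlation of log2(CPM + 10), among 7689 features reaching 50 CPM. These sums share libraries and depth, so the correlations carry no p. Penk was most like Aox3 (0.97), Sfrp1 (0.97) and Cyp1b1 (0.97), and Agt like Avpr1a (0.94), Cpxm2 (0.86) and Vtn (0.85). Nmb was less closely matched, with Cilp (0.81), Pde11a (0.80) and Sult1e1 (0.80). Fndc5 was most like Pappa (0.94), 6030408B16Rik (0.92) and Tcf21 (0.90), Adm like Abca8b (0.88), Col15a1 (0.88) and Fap (0.86), and Alkal2 like Bmper (0.97), Pappa (0.96) and Cpxm2 (0.94). Between members the correlation ran from 0.53 for Agt with Nmb to 0.91 for Fndc5 with Alkal2. All members were chosen for high counts in Pdgfra-Cre stroma, which is among these sums. Positive correlations between them follow from that choice, and nothing is read from them. Sult1e1, an oestrogen sulfotransferase, stood at 1565 CPM in Pdgfra-Cre stroma, 74.3 in Pdgfrb-Cre and 29.9 in wild type, and Sfrp1, a Wnt antagonist, at 613, 79.9 and 98.9 CPM.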

How the data were processed

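Single cells of stromal and vascular fractions were captured with 10x 3' v3 chemistry after removal of dead and red blood cells, per the labels' protocols. The deposited matrices give raw UMI counts for every gene in every barcode; the submitters' processing notes name Cell Ranger 3.1.0, STAR 2.6 and mm10. Depth was 14438471 UMIs in 2310 barcodes for Pdgfra-Cre, 30826733 in 4355 for Pdgfrb-Cre and 13352288 in 4124 for wild type.

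In scanpy 1.11.5, barcodes needed 500 genes or more and no more than 15% mitochondrial UMIs, and those with the highest Scrublet scores (0.8% per 1000 barcodes) were left out. From 2000 variable genes, without the members, Wt1 and Tcf21, 30 principal components and 15 neighbours gave 27 Leiden clusters at resolution 1. Clusters were named from 19 marker lists by the highest mean marker score, needing 3 markers seen in 10% of cells. A cluster stayed unnamed if another class had more markers among its 10 leading genes, or if none of its own was there, unless 75% of its own markers were each seen in 25% of cells; this rule, and leaving out G0s2 as an opposing neutrophil marker, was settled after the clusters were seen. A cycling cluster of 30 wild-type cells was kept out of the stroma. UMIs were summed per lineage and library as CPM. Genotypes, with 1 library each, were not tested against each other. Level intervals are exact Poisson, ratio intervals exact conditional binomial and share intervals exact Clopper-Pearson, at 95%; the limit for 0 UMIs is 3 UMIs. A gene was measured at 10 CPM in either sum. The calculations were tested on simulated data. Members, the 15 gene lists and the named genes' rule (the members, the 3 most alike genes of each, and list members with the highest stromal CPM) were chosen with earlier results of these data known; Enpep, Agtr1a, Calcrl, the receptor levels outside stroma and the division by Pi16 or Dpp4 were chosen after values were seen. The alternatives changed the cell filter, doublet removal, cluster resolution, stromal gate, scaling, depth and detection rule. Gene positions are those of GENCODE M21 on GRCm38. The result of 1 gene of the adrenomedullin list is not reported here.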

Additional observations from a re-analysis of the deposited data

Results flagged for a closer look

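Barcodes left out, because they failed the cell filter or, for 16, 130 and 60 of them, as likely doublets, were looked at apart, 901 in Pdgfra-Cre, 452 in Pdgfrb-Cre and 1456 in wild type, with medians of 925, 1201 and 707 UMIs. They held Penk at 66.1 CPM in Pdgfra-Cre, 12.4 in Pdgfrb-Cre and 21.1 in wild type, Agt at 33.7, 2.07 and 2.64 CPM, and Alkal2 at 5.68, 3.105 and 0 CPM. The Pdgfra-Cre values of these 3 genes lay above the wild-type ones. Left-out barcodes can hold free RNA and stromal cells of their own library. Stroma was 44.1% of kept cells in Pdgfra-Cre and 8.21% in wild type, so these values are not independent of the stromal levels.

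Adm had a log2 ratio of Pdgfra-Cre to wild type of 2.26 in stromal cells and -1.82 in dendritic cells, where 0 UMIs in 29 Pdgfra-Cre cells stood against 17 UMIs in 150 wild-type cells. That class differs in its clusters: all 29 Pdgfra-Cre cells were in cluster 0, as were 59 wild-type cells with 0 UMIs of Adm, and the 17 UMIs came from the 91 wild-type cells of cluster 24, which held 0 Pdgfra-Cre cells. Penk had a log2 ratio of Pdgfrb-Cre to wild type of 0.83 in the class named plasma cells (22 UMIs against 0), -0.70 in blood endothelial cells (5 UMIs against 23) and -0.61 in stromal cells. The plasma cell name depends on the resolution, and the leading genes of that class include Hist1h1b and Pclaf beside Jchain and Mzb1. At resolution 0.5 a cluster of 109 Pdgfrb-Cre and 146 wild-type cells with the same leading genes stayed unnamed, with cycling as its best class. At resolution 2 the plasma cell cluster held 33 and 11 cells. The differences between lineages were not tested, and with 1 library per genotype each direction rests on 1 library.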

How the results depend on the processing

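No paired analysis was possible because each genotype was 1 library and no result came from a test. The 7 counts of members were recomputed under other cell filters, doublets kept, Leiden resolutions 0.5 and 2, a UMI gate in place of clusters, other scalings, thinning and other detection rules; 94 of 101 such recomputed counts were within 1.5 times the reported one. Thinning every cell to 1000 UMIs gave 0 members higher in Pdgfrb-Cre than in wild type, and adding 1 CPM gave 3 lower, with Fndc5, under 10 CPM in both, among them. The other 5 came from leaving out cluster 6, an alternative added after the data were seen. It gave 1 higher and 1 lower in Pdgfra-Cre against wild type, 2 higher and 1 lower against Pdgfrb-Cre, and 4 higher in the Wt1 or Tcf21 detected cells, where 20 cells stand against 13. It also turned the log2 ratios of Pdgfra-Cre to wild type to -1.35 for Agt, -0.16 for Nmb and -0.35 for Fndc5, and that of Nmb to Pdgfrb-Cre to -1.28; the cause was not tested. Of the other single-gene ratios and shares, 296 stayed within their interval and 90 did not. Among those 90, ratios under 2-fold changed sign for Adm without cluster 20 (0.31 for Pdgfrb-Cre to wild type) and, in the Wt1 or Tcf21 division, for Penk and Fndc5 with Tcf21 alone (-0.27 and -0.0038), for Nmb with Wt1 alone or after thinning (-0.085 and -0.29) and for Adm as a mean of cells (0.14). Wild-type stroma limits the depth: 5 to 105 UMIs per member.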

Other observations

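Outside the named lineages, Penk was seen in 2 unnamed Pdgfrb-Cre lymphoid clusters. Cluster 15, led by Il17f, Il17a and Cxcr6, held 48 Penk UMIs in 10 of its 156 Pdgfrb-Cre cells (55.2 CPM, 40.7 to 73.1), and cluster 21, led by Ikzf2, Tnfrsf4 and Ctla4 and holding Foxp3 among its leading genes, held 24 UMIs in 9 of 204 cells (21.9 CPM, 14.1 to 32.6). The 103 wild-type cells of cluster 21 had 3 UMIs (5.69 CPM, 1.17 to 16.6). The other members had 0 UMIs in the Pdgfrb-Cre cells of both clusters except Nmb, at 24.1 and 28.3 CPM. Pdgfrb-Cre B, T and NK cells had 1 Penk UMI in 1807 cells.

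Of the 30 wild-type cycling cells, led by Cthrc1 and Nov and kept out of the stroma, 0 UMIs of Penk, Agt, Fndc5 and Alkal2 were seen, and Adm stood at 42.5 CPM (11.6 to 109) on 4 UMIs.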
